A study of Mus musculus with 2 samples.

Results

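The miR-125 family was described in small RNA from the retina of newborn wild-type mice. Its members were taken by name, as every row of miR-125a or miR-125b of either arm or any copy, which gave 5 of the 1358 miRNAs in the deposited tables. These are miR-125a-5p, miR-125a-3p, miR-125b-5p, miR-125b-1-3p and miR-125b-2-3p. The series held 1 group with 2 libraries, both made on postnatal day 0 from the outbred mouse stock CD-1. The labels name no altered gene and no agent for either library, so there is no condition to compare. Nothing in the labels ties a replicate to its own animal or litter, and SDs may hold technical spread alone. The p-values are from exact tests on counts, which allow for counting error but for no spread between libraries.

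The miR-125 miRNAs are the vertebrate relatives of lin-4, the developmental timing miRNA of the nematode. A miRNA hairpin is cut into a duplex of a 5p arm and a 3p arm, and usually one arm is loaded into the silencing complex while the other is degraded. The loaded arm finds target mRNAs mainly through its seed, bases 2 to 8 from the 5′ end. In the developing retina miR-125 is known, together with let-7 and miR-9, as a regulator of the change in progenitor competence from early to late cell types, with Lin28 genes among its known targets. Mouse miR-125 comes from 3 hairpins, and each lies in a cluster with a member of the miR-99/100 family and a member of let-7.

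The mature sequences show which members can share targets and which copies can be told apart. They are RefSeq entries on GRCm38.p6, written 5′ to 3′ with the seed in capitals, and all 5 members had an entry.
miR-125a-5p: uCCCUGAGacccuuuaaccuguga
miR-125b-5p: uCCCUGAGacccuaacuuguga
miR-125a-3p: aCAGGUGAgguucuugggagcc
miR-125b-1-3p: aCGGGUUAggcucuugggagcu
miR-125b-2-3p: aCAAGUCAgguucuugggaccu

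The 5p members have the same seed and the same first 13 bases, and differ by 3 edits after them. Both miR-125b hairpins give the same 5p sequence, so counts of miR-125b-5p cannot be assigned to a copy. The 3p members each have a seed of their own, and no other mature miRNA in the RefSeq table carries any of these 3 seeds at bases 2 to 8. The 3p arms of the miR-125b copies differ at 5 of their 22 bases, namely G3A, G4A, U7C, C11U and G20C (positions from 1 at the 5′ end, miR-125b-1-3p base first). The 3p arms can therefore be counted by copy where the 5p arm cannot.

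The hairpins lie on the plus strands of chromosomes 17, 9 and 16 of GRCm38. Mir125a spans 17830812 to 17830879 on chromosome 17, within the protein-coding gene Spaca6, in an intron of 2 of the 3 Spaca6 transcripts that span it and overlapping an exon of the third. Mir125b-1 spans 41581926 to 41582002 on chromosome 9, in introns of the noncoding gene 3110039I08Rik and overlapping an exon of the sense-intronic transcript Gm28119. Mir125b-2 spans 77646273 to 77646343 on chromosome 16, in an intron of the noncoding gene Mir99ahg. The RefSeq hairpins of Mir125a and Mir125b-1 are shown with both mature arms in capitals. The comparison of arms below also includes Mir125b-2, whose hairpin sequence was missing from the reference used here.
Mir125a: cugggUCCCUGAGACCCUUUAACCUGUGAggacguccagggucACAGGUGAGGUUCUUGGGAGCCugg
Mir125b-1: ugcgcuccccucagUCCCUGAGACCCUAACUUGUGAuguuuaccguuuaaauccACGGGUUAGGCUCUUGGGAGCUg

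The libraries held 8337902 and 8118208 counts over all miRNAs, and levels are given as CPM, the count scaled to a common total by the sum of the count table. A miRNA with no count could still have been at up to 0.36 CPM and 0.37 CPM (3 counts of the total). All 8 markers of the neural retina were present in both libraries and summed to 42.1% and 44.3% of the counts in replicates 1 and 2. Of 14 markers of other cells, 11 were present in both libraries. Their summed level was 5726 CPM in replicate 1 and 4951 CPM in replicate 2, most of it from miR-204-5p (mean 3389 CPM). Of the 14 markers, 3 had no count in either library, namely miR-205-5p of lens and corneal epithelium and the leukocyte miRNAs miR-150-5p and miR-223-3p. The RNA is from whole retina, so fewer cells that hold a miRNA and less of it per cell cannot be told apart.

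All 5 members were present in both libraries, and their levels spanned a 143-fold range of mean CPM. miR-125a-5p was the highest, with 52868 counts or 6341 CPM in replicate 1 (exact binomial 95% interval 6287 to 6395) and 40424 counts or 4979 CPM in replicate 2 (4931 to 5028). Its mean of 5660 ± 963 CPM (SD, n = 2) placed it at rank 25 of 1358. miR-125b-5p, the other member with the lin-4 type seed, had 12998 counts or 1559 CPM (1532 to 1586) in replicate 1 and 11303 counts or 1392 CPM (1367 to 1418) in replicate 2, a mean of 1476 ± 118 CPM at rank 60. Both 5p members were higher in replicate 1, and in each of them the intervals of the libraries did not overlap. These intervals hold counting error alone. PCR copies were not told apart by molecular identifiers, and the intervals make no allowance for them.

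The 3p members were lower and nearly equal in the 2 libraries. miR-125b-1-3p had 1396 and 1361 counts in replicates 1 and 2, or 167.4 and 167.6 CPM, at rank 151. miR-125a-3p had 634 and 643 counts, or 76.0 and 79.2 CPM, at rank 192. miR-125b-2-3p had 330 and 321 counts, or 39.6 and 39.5 CPM, at rank 245. The intervals of the libraries overlapped for all 3. The median member stood at 168 CPM, against a median of 3.65 CPM over the 924 miRNAs present in both libraries. The order of the 5 members by CPM was the same in both libraries, and no interval of a member overlapped that of its neighbour in the order.

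**Figure D1:**
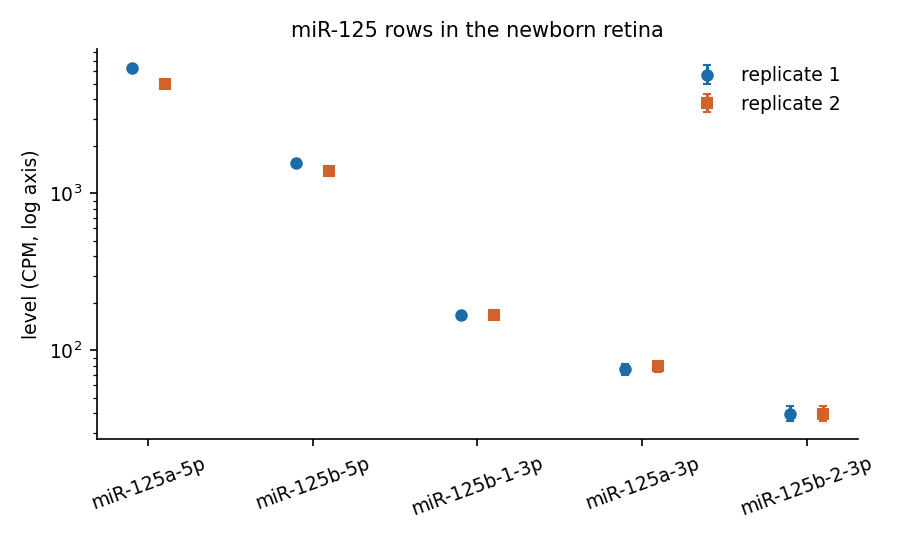
Level of each miR-125 row in CPM (log axis), with 1 point per library and bars for the exact binomial 95% interval of counting error. miR-125a-5p and miR-125b-5p were lower in replicate 2 by table totals (for miR-125b-5p not called with TMM scaling), while the points of the 3 rows of the 3p arm nearly coincided.

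A count compares RNA sequences only up to their yield in adapter ligation, which was not measured, so every ratio between different miRNAs holds that yield as well. miR-125a-5p exceeded miR-125b-5p by 4.07-fold in replicate 1 and by 3.58-fold in replicate 2. It held 80.3% of the counts of both 5p members in replicate 1 (exact 95% interval 80.0 to 80.6) and 78.1% in replicate 2 (77.8 to 78.5), 79.2% ± 1.497 (SD, n = 2) on average. Between the miR-125b copies, the 3p arm of Mir125b-1 exceeded that of Mir125b-2 by 4.23-fold, a log2 ratio of 2.08 in each library (95% interval 1.91 to 2.26 in both). The copies kept this ratio within 0.0023 (SD of log2, n = 2), which is less than counting error. miR-125b-1-3p exceeded miR-125a-3p by 2.16-fold, and miR-125a-3p exceeded miR-125b-2-3p by 1.96-fold, so the 3p arm of miR-125a lay between those of the miR-125b copies.

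Of the 924 miRNAs present in both libraries, 114 (12.3%) held a fractional count, as where reads that fit several miRNAs are split. The rule by which reads were assigned is not given in the sources used here. All 5 members held whole counts in both libraries. The most frequent reads of miR-125a-5p and miR-125b-5p were 3 edits apart, and those of the 3p members were 3 to 6 edits apart.

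The seed shared by the 5p members was searched in all mature sequences of the RefSeq table. It is at bases 2 to 8 of 5 miRNAs, of which 3 had a row in the count table.
miR-351-5p: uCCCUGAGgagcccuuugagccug
miR-6367: uCCCUGAGacccugguucagga
miR-6394: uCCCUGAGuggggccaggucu
They are shown because they have the miR-125 seed without being named miR-125. miR-351-5p, from the minus strand of chromosome X (53053315 to 53053338), was at 309 and 281 CPM in replicates 1 and 2, with a mean of 295 ± 19.96 CPM (SD, n = 2) at rank 122. miR-6367 and miR-6394 were not analysed here. Of the counts with this seed, miR-125a-5p held 76.0% ± 1.69, miR-125b-5p held 19.96% ± 1.37 and miR-351-5p held 3.99% ± 0.322 (SD, n = 2). The seed letters thus came mostly from the single hairpin Mir125a. The same 7 bases start 1 base later, at base 3, in miR-670-5p, which was at 2.998 and 2.956 CPM.

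For each of the 5 members, the libraries had 1 and the same most frequent read, and it began at the first base of the mature entry. The seeds of these most frequent reads of the members were thus those of the annotation. Both traits are frequent. Of 161 miRNAs at 100 CPM or more with a RefSeq entry, 156 (96.9%) had the same read in both libraries. The mature start was kept in both libraries by 149 (92.5%). At 10 CPM or more these were 292 (93.0%) and 282 (89.8%) of 314. At the other end, the reads of 4 of the 5 members stopped 1 base before the annotated end, and miR-125b-1-3p alone ended with it. The 5p reads are shown as examples, in DNA letters as deposited and with the seed in capitals.
miR-125a-5p read: tCCCTGAGaccctttaacctgtg
miR-125b-5p read: tCCCTGAGaccctaacttgtg
The miR-125a-5p read had 23 bases against 24 in the mature entry, and the miR-125b-5p read had 21 against 22. An earlier end by any number of bases in both libraries was found in 33 of the 161 miRNAs at 100 CPM or more with a RefSeq entry of the same name (20.5%), and in 68 of 314 at 10 CPM or more (21.7%). An end exactly 1 base early in both libraries was found in 25 of the 161 and 45 of the 314. In the same clusters, the read of miR-99a-5p also ended 1 base early, while those of miR-99b-5p, miR-100-5p, let-7e-5p, let-7a-5p and let-7c-5p had the annotated end. The file gives only the leading read, so the share of reads with each end was not measured.

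The cluster partners of miR-125 differed widely in level although each trio lies on 1 strand of 1 locus. On chromosome 17, Mir99b, Mirlet7e and Mir125a lie within 692 bases. miR-125a-5p was lower than miR-99b-5p, with 15222 and 15670 CPM for the latter in replicates 1 and 2, by a mean of 2.75-fold (log2 ratio of miR-125a-5p over miR-99b-5p -1.26 and -1.65). It was higher than let-7e-5p, with 2904 and 2855 CPM for the latter, by 1.95-fold (log2 ratio 1.13 and 0.80). The 3p arms had the same order, with miR-99b-3p at 734 and 834 CPM, miR-125a-3p at 76.0 and 79.2 CPM, and let-7e-3p at 40.5 and 29.4 CPM.

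On chromosomes 9 and 16 the miR-125b hairpins lie 45.1 kb and 46.5 kb from the nearest let-7 hairpin. miR-125b-5p exceeded miR-100-5p of the chromosome 9 cluster (584 and 608 CPM) by 2.47-fold and was below miR-99a-5p of the chromosome 16 cluster (8424 and 7606 CPM) by 5.43-fold. The log2 ratio of miR-125b-5p over miR-99a-5p was -2.43 in replicate 1 and -2.45 in replicate 2, and over miR-100-5p it was 1.42 and 1.20. let-7c-5p (9368 and 8500 CPM) and let-7a-5p (18626 and 17496 CPM) exceeded miR-125b-5p by 6.06-fold and 12.3-fold, but each also comes from hairpins outside these clusters. miR-100-5p, miR-99a-5p, let-7a-5p and let-7c-5p held fractional counts, as did let-7e-5p of the chromosome 17 cluster in replicate 2. Some reads of these partners may thus have been split between rows.

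The 2 clusters that hold miR-125b ranked in opposite order by different arms. By the miR-99/100 5p arms, chromosome 16 was ahead, with miR-99a-5p exceeding miR-100-5p by 13.4-fold (log2 ratio 3.85 and 3.65). By the miR-125b 3p arms, chromosome 9 was ahead by the 4.23-fold given above. The other 3p arms of these clusters had few counts. On chromosome 9, miR-100-3p had 0 and 2 counts and let-7a-2-3p had 1 and 0 counts. On chromosome 16, miR-99a-3p had 4 and 9 counts and let-7c-1-3p had 55 and 30 counts (6.60 and 3.70 CPM). By the let-7 3p arms, too, chromosome 16 was ahead, with a log2 ratio of let-7c-1-3p over let-7a-2-3p whose 95% interval began at 3.24 in replicate 1 and at 2.93 in replicate 2. miR-125b-1-3p and miR-125b-2-3p were the highest 3p arms of their clusters in both libraries, whereas miR-125b-5p was below miR-99a-5p on chromosome 16. On chromosome 9, miR-125b-5p exceeded miR-100-5p and was below let-7a-5p. Since let-7a-5p also comes from hairpins elsewhere, the highest 5p arm of the chromosome 9 cluster cannot be told.

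**Figure D2:**
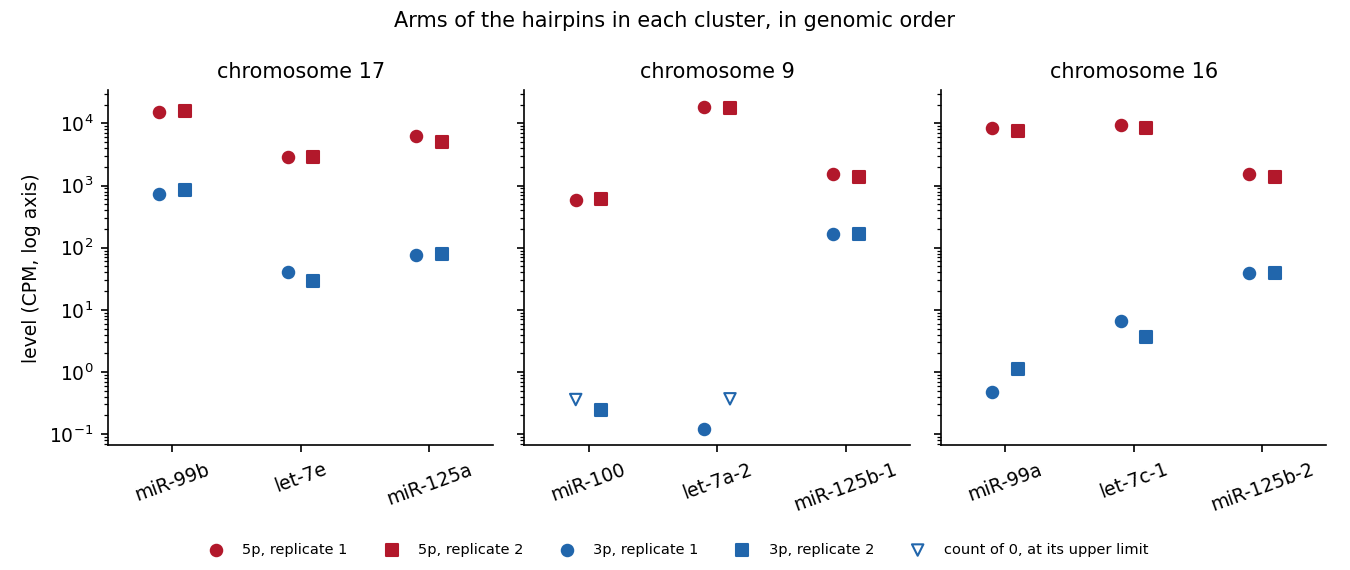
Levels in CPM (log axis) of the 5p and 3p arms of the hairpins in the 3 clusters that hold miR-125, in genomic order, with 1 point per library; miR-125b-5p is drawn in both of its clusters, and let-7a-5p and let-7c-5p include counts from hairpins elsewhere. In the clusters on chromosomes 9 and 16 the 3p arm of miR-125b stands above the other 3p arms, the highest of which is let-7c-1-3p with 55 and 30 counts.

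Of the miRNAs known for retinal timing, miR-125 was far below let-7 and miR-9. The 5p members of miR-125 together had 7900 and 6372 CPM in replicates 1 and 2. The 8 rows of the let-7 5p arm together had 178688 and 183896 CPM, and exceeded miR-125 by 22.6-fold and 28.9-fold. miR-9-5p had 226008 and 228391 CPM, and exceeded miR-125 by 28.6-fold and 35.8-fold. miR-125 was thus the lowest of the 3 in both libraries.

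For arm use, the rows of all copies of a name were summed, and 337 miRNA names had a row for each arm and a sum of 10 counts or more per library. A name was called where an exact binomial test against equality, adjusted by Benjamini-Hochberg over all names, was below 0.05 in each library in 1 direction. miR-125a favoured its 5p arm by 83.3-fold in replicate 1 and 62.8-fold in replicate 2, a log2 ratio of 6.18 ± 0.29 (SD, n = 2). miR-125b favoured its 5p arm by 7.53-fold and 6.72-fold, a log2 ratio of 2.83 ± 0.12. Both were called, with adjusted p-values that came out as 0 at machine precision in the exact test. Of all names, 90.2% were called in either direction, 48.4% were called in favour of the 5p arm and 41.8% were called with a 5p excess of 4-fold or more in both libraries, so a call of this kind is frequent.

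The 3p arm made up 1.19% of miR-125a counts in replicate 1 (exact 95% interval 1.10 to 1.28) and 1.57% in replicate 2 (1.45 to 1.69). In miR-125b the 3p arms made up 11.7% (11.2 to 12.3) and 13.0% (12.4 to 13.5). The intervals of miR-125a and miR-125b were far apart in both libraries. Among the 181 names with more 5p than 3p counts on average, whose median log2 ratio was 4.72, miR-125a stood at position 63 from the most uneven and miR-125b at position 127. With each miR-125b copy set alone against the pooled 5p arm, the log2 ratio was 3.14 ± 0.12 for miR-125b-1 and 5.22 ± 0.11 for miR-125b-2. Both are upper limits, since the 5p arm of either copy is only part of miR-125b-5p.

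**Figure D3:**
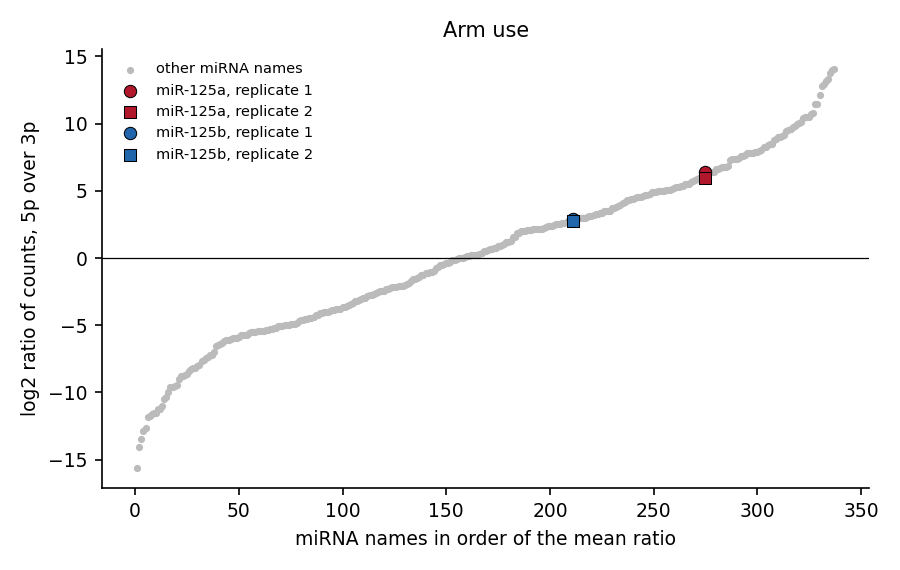
Log2 ratio of 5p over 3p counts for the 337 miRNA names tested, ordered by their mean over the libraries; miR-125a and miR-125b are drawn for each library. miR-125a lies at 6.38 and 5.97 and miR-125b at 2.91 and 2.75, on both sides of the median of 4.72 among names with more 5p counts.

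Each of the 710 miRNAs with 10 counts or more was tested between the libraries (exact binomial, two-sided, Benjamini-Hochberg over all 710). This compares the 2 libraries and no condition. By table totals the 5p members were lower in replicate 2 and the 3p members were not called. In the exact test, miR-125a-5p was 1.27-fold lower in replicate 2 (log2 ratio -0.35, adjusted p = 2.52e-293) and miR-125b-5p 1.12-fold lower (log2 ratio -0.16, adjusted p = 1.64e-17). The log2 ratios of miR-125b-1-3p, miR-125a-3p and miR-125b-2-3p were 0.0019, 0.059 and -0.0013, none of them called.

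These calls stand against a high background. Of all 710 miRNAs, 27.7% were called in either direction and 19.6% as lower in replicate 2, and at levels of 100 CPM or more the share was 77.8% of 180. The median log2 ratio of all miRNAs tested was -0.12 by table totals and -0.0018 with TMM scaling (a scaling by a trimmed mean of ratios from edgeR). With TMM scaling 26.1% of the 710 were called and the balance turned, with 11% called as lower in replicate 2 (78 miRNAs, against 139 by table totals) and 107 as higher (against 58). miR-125a-5p was then still lower in replicate 2 (log2 ratio -0.23), miR-125b-5p lost its call (-0.043, adjusted p = 0.0751, exact binomial test) and the 3p members stood at 0.12 to 0.18, none called. Ordered from the lowest log2 ratio, miR-125a-5p was at position 11 of the 180 miRNAs at 100 CPM or more and miR-125b-5p at position 69. The summed markers of other cells given above were also lower in replicate 2, but not for every cell type. Markers of pigment epithelium (3789 and 3000 CPM in replicates 1 and 2) and endothelium (969 and 840 CPM) were lower. The pigment epithelium sum was nearly all miR-204-5p, with miR-211-5p at a mean of 5.62 CPM. Those of lens and cornea, from miR-184-3p alone, were higher (738 and 869 CPM, log2 ratio 0.24, called). Muscle (147 and 157 CPM), blood (61.8 and 63.5 CPM) and liver (20.7 and 21.1 CPM) were slightly higher, but no sum was tested. Within muscle, miR-1a-3p was called as higher (log2 ratio 0.62), and miR-133a-3p and miR-143-3p were higher but not called. miR-206-3p of muscle was lower (-0.095, not called). The liver marker miR-122-5p was not called (0.022). The part of these cells in the difference of the miR-125 members was not tested.

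Of the arms of the miR-125a cluster, 2 were lower in replicate 2 and called by table totals, namely miR-125a-5p and let-7e-3p. The log2 ratio of replicate 2 over replicate 1 was -0.35 for miR-125a-5p, against 0.042 for miR-99b-5p (called as higher) and -0.024 for let-7e-5p (not called). With TMM scaling it was 0.16 for miR-99b-5p and 0.096 for let-7e-5p, both called as higher. Among the 3p arms it was 0.18 for miR-99b-3p (called) and -0.46 for let-7e-3p (called, from 338 and 239 counts). Ratios within a library do not depend on the scaling. The ratio of miR-125a-5p to miR-99b-5p was 0.417 in replicate 1 (log2 interval -1.28 to -1.25) and 0.318 in replicate 2 (-1.67 to -1.64), and the intervals did not overlap. For miR-125b-5p the nearest value among partners was that of miR-99a-5p, with a log2 ratio between the libraries of -0.15 against -0.16.

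The balance of the arms was also compared between the libraries, by a test that was chosen after seeing the data and does not depend on scaling. The log2 ratio of 5p over 3p in replicate 2 minus that in replicate 1 was -0.41 in miR-125a (adjusted p = 1.12e-05, Fisher's exact test with Benjamini-Hochberg adjustment over 337 names) and -0.16 in miR-125b (adjusted p = 0.0199, same exact test). Of all names, 10.7% were called, 20 with a lower and 16 with a higher ratio in replicate 2, and the median difference over all names was 0.0078. miR-125a and miR-125b were both among the 5.93% called as lower. By the size of the difference they stood only at positions 159 and 253 of the 337 names. This compares 1 library with 1 library and shows no effect of a condition.

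**Figure D4:**
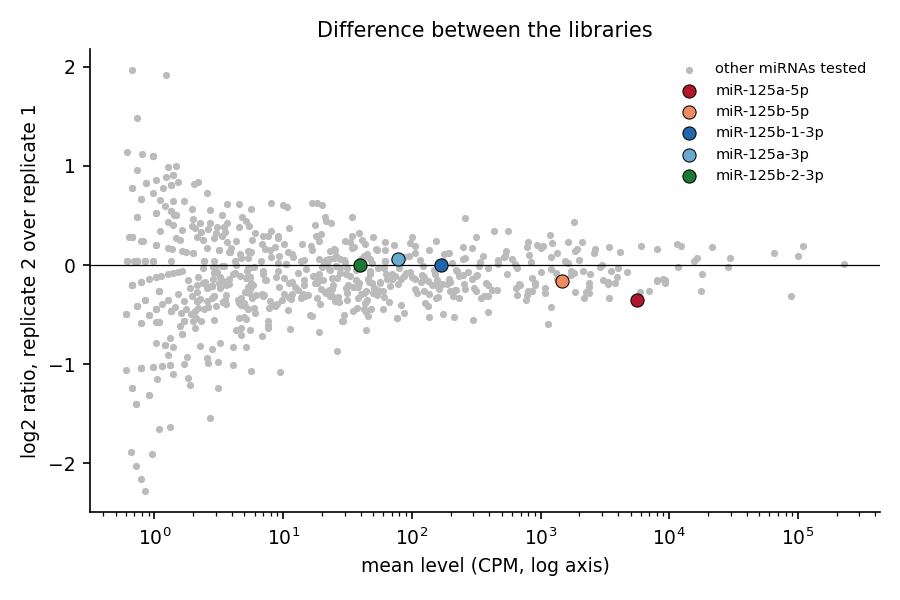
Log2 ratio of replicate 2 over replicate 1 by table totals against mean level in CPM (log axis) for the 710 miRNAs tested, with the miR-125 members in colour. miR-125a-5p lies at -0.35 and miR-125b-5p at -0.16, while the 3p members lie between -0.0013 and 0.059.

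As a measure of level only, the 2 miRNAs nearest to each member were found by the distance of log2 CPM over both libraries, which are 2 points of 1 group and show no pattern across conditions. miR-96-5p of the sensory-organ cluster (6529 and 5399 CPM, distance 0.12) and miR-30a-5p (5684 and 6473 CPM, distance 0.41) were nearest to miR-125a-5p. miR-217-5p (1516 and 1561 CPM, distance 0.17) and miR-17-5p (1417 and 1284 CPM, distance 0.18) were nearest to miR-125b-5p. Nearest to the 3p members were miR-219a-1-3p and miR-30b-3p for miR-125b-1-3p, miR-153-3p and miR-136-3p for miR-125a-3p, and miR-195a-3p and miR-139-3p for miR-125b-2-3p, at distances of 0.048 to 0.14.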

How the data were processed

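Small RNA of 18 to 30 nt from the retina was sequenced in 2 libraries of 1 group. Per the labels' protocols, total RNA was size-selected on a gel and the libraries were made by adapter ligation. The submitters' processing notes name bcl2fastq 2.17.1.14. How reads were aligned and counted, and on which build, is not given in the sources used here. The authors deposited estimated counts per mature miRNA, which were rounded to whole numbers for tests. The authors' deposited CPM is scaled to a library total of their own, and its columns summed to 88.5% of a full library in both. The third deposited table holds text, the most frequent read of each miRNA, marked against miRBase 21 per the file headers.

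CPM was computed here over the count table total, 8337902 and 8118208. Ratios used 0.5 added to each count. A miRNA or name was tested with at least 10 counts, by exact binomial tests with Benjamini-Hochberg adjustment over all features at 0.05. The tests were tried on simulated counts drawn with counting error alone. Those counts held no added spread between libraries, so calls under such spread were not checked. TMM (edgeR 4.0.16) and DESeq2 1.42.0 size factors were alternatives, in R 4.3.3, as were the deposited CPM, no filter, counts rounded down, no pseudocount, stricter arm filters, single copies and each library alone. Other values came from Python 3.11.15, NumPy 2.4.6, pandas 2.3.3 and SciPy 1.17.1, and plots from matplotlib 3.10.9. Hairpin positions are from GENCODE on GRCm38. Members, partners and lists were chosen with earlier results of these data known. Named were all members, the listed partners, miRNAs with a member's seed, let-7 and miR-9-5p, and the 2 miRNAs nearest in level to each member.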

Additional observations from a re-analysis of the deposited data

How the results depend on the processing

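With the deposited CPM, mean levels were 5010.5 CPM for miR-125a-5p and 1306 CPM for miR-125b-5p. They were 148.3 CPM for miR-125b-1-3p, 68.7 CPM for miR-125a-3p and 35 CPM for miR-125b-2-3p. All 5 were lower because the authors' library total is larger. The log2 ratio of miR-125b-1-3p over miR-125b-2-3p was 2.083 against 2.081. DESeq2 size factors gave 167.8 CPM for miR-125b-1-3p and 39.62 CPM for miR-125b-2-3p, and TMM gave 39.59 CPM for the latter, shifts beyond a very small SD. The log2 ratio of miR-125b-2-3p between the libraries, not called, changed sign to 0.119 with TMM and 0.0987 with DESeq2 size factors. The call of miR-125b-5p was lost with TMM (-0.043) and kept with DESeq2 size factors (-0.063). The numbers of miRNAs called between the libraries (183 to 198) stayed within 1.5 times the reported one, but their direction did not: 58 were higher and 139 lower in replicate 2 by table totals, 107 and 78 with TMM, and 99 and 88 with DESeq2 size factors. No paired analysis was possible because there is only 1 group. Each level is limited by counting error and by having 2 libraries.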
